A study of Mus musculus with 11 samples.

Results

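DNA methylation is a mark on cytosine, mostly where the next base is guanine (CpG). Dnmt3a and Dnmt3b set new methyl groups, and Dnmt1 copies them after each round of DNA replication with the help of Uhrf1, which finds the half-methylated sites. The Tet dioxygenases oxidize the methyl group, and Tdg cuts out the most oxidized bases so that repair can put back an unmodified cytosine. In adult blood formation these genes are best known through Dnmt3a and Tet2, whose loss lets mutant stem cell clones expand.

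The genes described here are the 9 that encode these enzymes and their closest cofactors, Dnmt1, Dnmt3a, Dnmt3b, Dnmt3l, Tet1, Tet2, Tet3, Uhrf1 and Tdg. They were chosen by name, with earlier results of these data known. All 9 were found among the 37820 gene IDs of an RNA-seq table of 11 libraries from 5 sorted mouse populations. Endo and HE (2 libraries each) were CD31-positive arterial cells of E10.5 embryos with a GFP reporter of Runx1, negative for CD45 and CD41. HE carried the GFP signal with low or no Kit, and Endo carried neither. The dorsal aorta, umbilical and vitelline arteries were pooled. Pre-HSCs (3 libraries) were labelled E10.5, while the study's methods give a later day. They were positive for Kit, ESAM, CD144, CD31 and for GFP from a transgene driven by Ly6a sequences, which marks the cells by transgene activity and holds more pre-HSCs than HSCs. Fetal liver (FL) HSCs were of E14.5 and bone marrow (BM) HSCs of mice aged 6 to 8 weeks (2 libraries each). Both were lineage-negative, Sca1-positive, Kit-positive and CD150-positive, and no reporter is named for them. FL HSCs were also CD48-negative. For BM HSCs the study's methods give CD48-negative and CD135-negative, while its list of sorted cells gives CD34-negative and does not name CD48. The labels give B6129SF1 as the strain of every library. The study's methods name B6C3F1 mothers for the arterial populations and both B6C3F1 and B6129SF1 animals for the HSCs. Embryos or animals were pooled for each sort, and the libraries are called biological replicates without a statement of which shared a litter or day. Age, tissue, sort gate, reporter and cross therefore changed together, and their parts in any difference cannot be told apart.

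Values are FPKM, fragments scaled for transcript length and for the mapped fragments of the library, so levels can be compared between genes, and read depth is unknown. The markers matched the labels. The summed FPKM of 6 endothelial genes was 1058 to 1313 for Endo and HE, 1583 to 1789 for pre-HSCs and 87.6 to 105 for FL and BM HSCs. Of 6 hematopoietic genes it was 7.83 to 18.6 for Endo and HE, 172 to 309 for pre-HSCs and 759 to 877 for HSCs. Markers of other cells were also present. The sum of 8 germ cell genes was 161 and 226 for the Endo libraries, 30.8 and 37.6 for HE and at most 8.58 elsewhere. Of 5 mural genes it was 464 and 490 for HE and 74.6 to 133 for Endo and pre-HSCs. The macrophage sum (4 genes) was 114 to 495 for pre-HSCs, 83.6 and 182 for FL HSCs, 105 and 129 for BM HSCs and at most 8.29 for Endo and HE. In BM HSCs it was nearly all Lyz2 (mean 114), with Cd68 at 2.6, Csf1r at 0.10 and Mrc1 at 0.091. Lyz2 was also most of it in FL HSCs (95.5), with Csf1r at 19, Cd68 at 15.8 and Mrc1 at 2.73. In pre-HSCs Lyz2, Csf1r, Mrc1 and Cd68 had means of 96.1, 92.2, 65.3 and 39.9. The erythroid sum (6 genes) was 139 and 228 for FL HSCs, 50.2 to 85.6 for Endo and HE and 16.4 to 33.6 for pre-HSCs and BM HSCs. The part of such cells in the values below was not tested, except where a value is given. In bulk RNA, fewer cells of a type and less RNA per cell cannot be told apart.

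The maintenance and de novo methyltransferases were highest in FL HSCs, Dnmt3b most of all. Of the Tet genes, Tet3 also had its highest mean there, though it overlapped BM HSCs. Tet2 had its highest mean in pre-HSCs and Tet1 in BM HSCs. Of the 9 genes, 8 passed the filter on low values (1 FPKM or more in no fewer than 2 libraries), and Dnmt3l did not. A gene was called changed under 2 conditions, set on the scale of log2(FPKM + 1). Limma's moderated F test across the 5 populations had to have an adjusted p below 0.01, and the contrast of the populations in question an adjusted p below 0.05 and a change of 2-fold or more. The F test was passed by 5 of the 8 (Dnmt1, Uhrf1, Dnmt3a, Dnmt3b and Tdg), against 57.1% of all 14708 genes tested. From Endo to HE none of the 8 was called, with 0.129% of all genes called. From HE to pre-HSCs again none was called, against 11.3%. From pre-HSCs to FL HSCs Dnmt1 and Dnmt3b were called higher, 2 of 8 against 25% of all genes. From FL to BM HSCs Dnmt3a and Dnmt3b were called lower, 2 of 8 against 10.1%. Over the whole span from Endo to BM HSCs only Dnmt3b was called, higher, 1 of 8 against 36.2%. In all, 3 of the 8 (37.5%) were called in at least 1 neighboring transition, as were 35% of all genes tested, so the share of these genes that changed was close to the background. Neighboring transitions share a population: a high value in the 2 FL libraries enters both the rise into FL HSCs and the fall out of them.

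**Figure D1:**
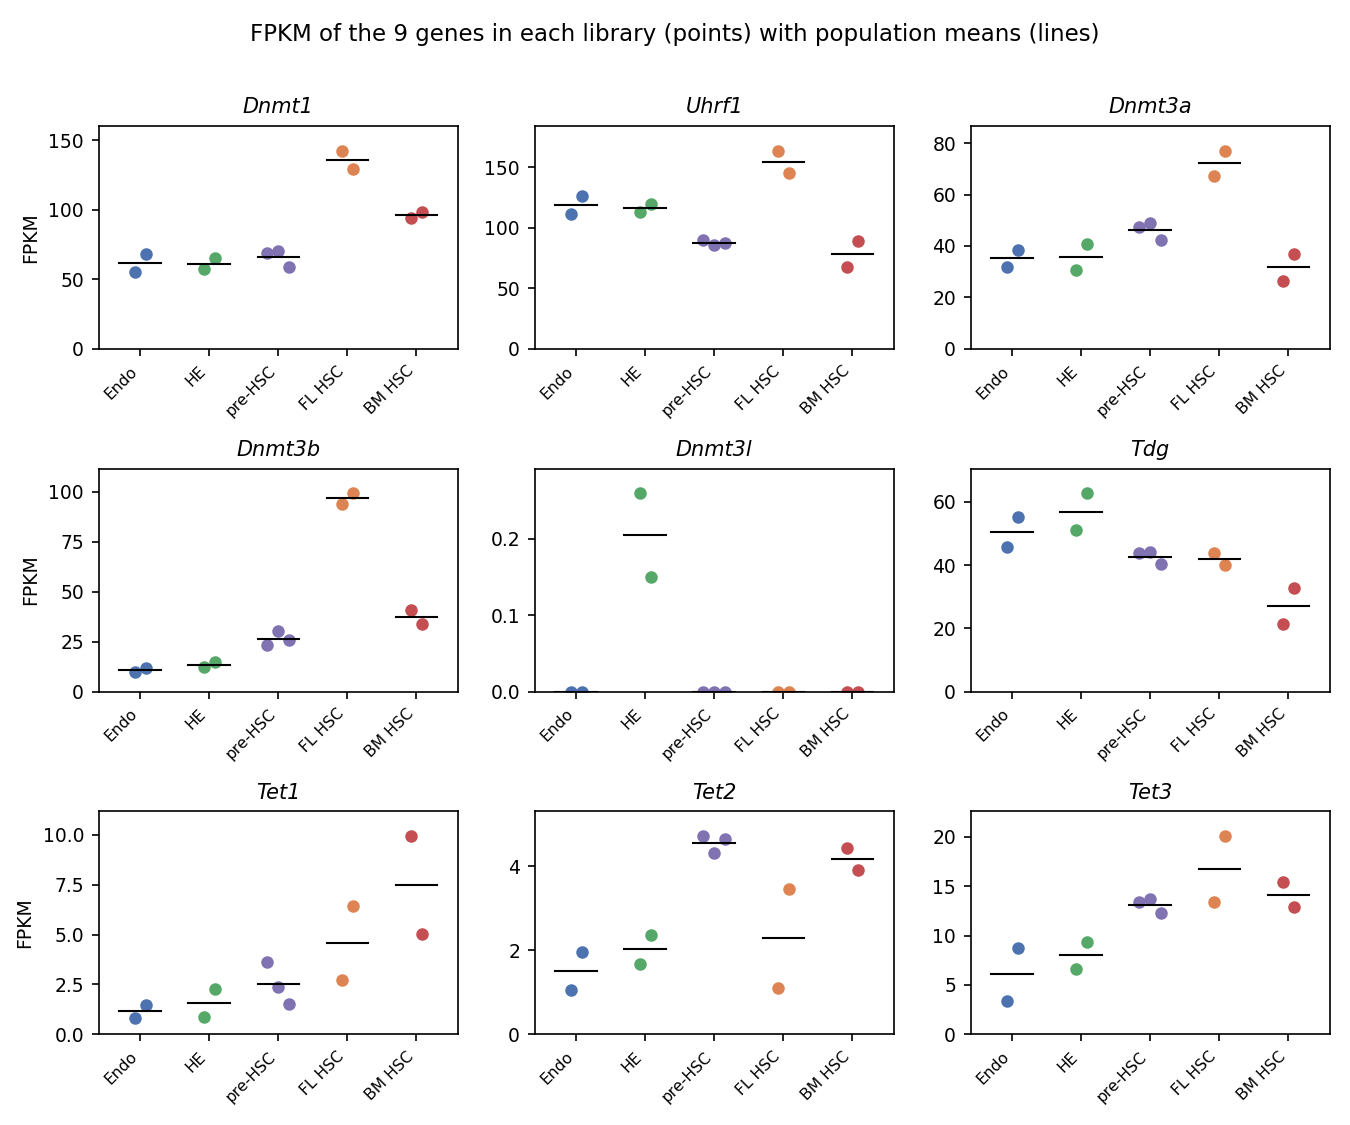
FPKM of each of the 9 genes (y axis, from 0, a separate range for each gene) in the 11 libraries (points) of the 5 populations (x axis), with the population mean as a line. Dnmt1 and Dnmt3b were at 129.5 or more and 94.2 or more in both FL HSC libraries, above every other library, while Dnmt3l was listed at 0 in all but the HE libraries.

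Dnmt1 encodes the maintenance methyltransferase (ENSMUSG00000004099, chr9:20711650-20757317 on the minus strand of NCBIM37, mm9). It was at 55.5 and 68.5 FPKM for Endo, 57.1 and 65.6 for HE, and 68.9, 70.2 and 58.6 for pre-HSCs. It then stood at 143 and 129.5 for FL HSCs and at 94.3 and 98.2 for BM HSCs. The 7 arterial libraries overlapped, and both HSC populations lay above all of them without overlap between FL and BM. From pre-HSCs (65.9 ± 6.33 FPKM, SD, n = 3) to FL HSCs (136 ± 9.36, n = 2) the log2 fold change was 1.04 (SE 0.14, limma's adjusted p = 0.000179), just past 2-fold. Without pre-HSC replicate 3 or FL HSC replicate 1 it was 0.96 and 0.97, and with quantile normalization or FPKM scaled to equal totals it was 0.80 and 0.79, each of which ended the call through the fold alone. From FL to BM HSCs the change was -0.49 (SE 0.15, adjusted p = 0.0401), under 2-fold. From Endo to HE the change was -0.01, with a 95% interval of -0.34 to 0.32.

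Uhrf1 encodes the protein that brings Dnmt1 to half-methylated CpGs (ENSMUSG00000001228, chr17:56442744-56462909, plus strand, mm9). Its libraries read 111 and 126 FPKM for Endo, 113 and 119 for HE, 89.5, 85.5 and 87.6 for pre-HSCs, 164 and 145.5 for FL HSCs, and 67.5 and 89.2 for BM HSCs. Unlike Dnmt1, it was lower in pre-HSCs than in every Endo and HE library, and the BM HSC libraries overlapped those of pre-HSCs. The log2 fold change was -0.41 (SE 0.14, adjusted p = 0.0519) from HE to pre-HSCs, 0.81 (SE 0.14, adjusted p = 0.000859) into FL HSCs and -0.98 (SE 0.15, adjusted p = 0.00189) from FL to BM HSCs, each short of 2-fold. Without FL HSC replicate 2 or BM HSC replicate 2 the last value was -1.07 and -1.18, and with the length correction -1.02, each of which made it a call. Uhrf1 passed the F test with an adjusted p of 0.00122.

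Both proteins work behind the replication fork, so their transcripts were set beside those of 22 S phase genes such as the helicase subunit gene Mcm7 and the licensing factor gene Cdc6. Of these 22 genes, 6 were called higher from pre-HSCs to FL HSCs and 6 lower from FL to BM HSCs, where 11.1% and 4.07% of all genes were, with medians of 0.80 and -0.71 against 0.11 and 0 over all genes. On the log2(FPKM + 1) scale Dnmt1 stood above the mean of the S phase genes by 0.34 ± 0.19 (SD, n = 2) for Endo, 0.41 ± 0.10 for HE, 0.74 ± 0.17 (n = 3) in pre-HSCs, 1.02 ± 0.02 for FL HSCs and 1.25 ± 0.0007 for BM HSCs. Relative to these genes its level was thus higher in BM than in FL HSCs, the reverse of its FPKM. Uhrf1 stood 1.27 ± 0.11, 1.33 ± 0.01, 1.15 ± 0.03, 1.20 ± 0.004 and 0.94 ± 0.24 above them in the same order, a narrower range. These differences are descriptions, and the part of cell cycle activity in the Dnmt1 and Uhrf1 levels was not tested. Of 14 mitosis genes, such as the kinase genes Plk1 and Aurka, none was called from pre-HSCs to FL HSCs and 6 were called lower from FL to BM HSCs.

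**Figure D2:**
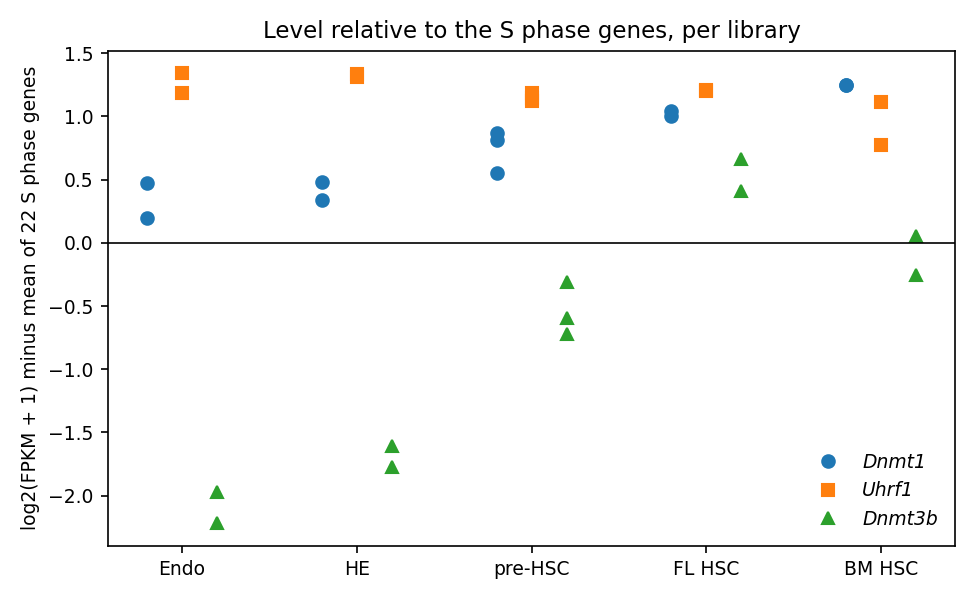
Level of Dnmt1, Uhrf1 and Dnmt3b in each library as log2(FPKM + 1) minus the mean of 22 S phase genes (y axis), by population (x axis). Uhrf1 kept between 0.77 and 1.34 in all 11 libraries, while Dnmt1 and Dnmt3b had their lowest means in Endo.

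Promoter sequences of Dnmt1 and Uhrf1 are shown because E2F factors, which drive S phase genes, bind words of the form TTTGGCGC, TTTCGCGC, TTTCCCGC or TTTGCCGC. Windows of 300 bases, from 250 before a RefSeq transcript start to 50 after it (GRCm38.p6), were searched on both strands for these 4 words. They were found in 2 of the 16 windows of the 9 genes, and in 607 of 21263 windows of all protein-coding genes (2.85%). A first search for 2 words at the outermost starts had found none in the 9 genes. It was then widened to these 4 words and all starts, so the count of 2 windows is a description. Of 20 S phase genes with a window, 8 held a word, against 575 of all 17492 genes (3.29%). Capitals mark the words, the remaining bases are lower case, and no words overlapped. The Dnmt1 window at chr9:20952574-20952873 (minus strand) holds TTTCGCGC on the opposite strand from position -219 and TTTGGCGC from position 33, counted from 0 at the start. The Uhrf1 window at chr17:56304063-56304362 (plus strand) holds TTTCGCGC from position -185. Each has 33 CpGs, against a median of 13 over all windows.
Dnmt1 promoter: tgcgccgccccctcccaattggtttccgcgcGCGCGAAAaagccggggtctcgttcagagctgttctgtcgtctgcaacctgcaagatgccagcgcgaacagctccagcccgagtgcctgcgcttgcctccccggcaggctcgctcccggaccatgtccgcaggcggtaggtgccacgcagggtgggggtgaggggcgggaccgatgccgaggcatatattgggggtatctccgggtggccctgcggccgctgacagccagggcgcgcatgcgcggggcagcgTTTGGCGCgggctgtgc
Uhrf1 promoter: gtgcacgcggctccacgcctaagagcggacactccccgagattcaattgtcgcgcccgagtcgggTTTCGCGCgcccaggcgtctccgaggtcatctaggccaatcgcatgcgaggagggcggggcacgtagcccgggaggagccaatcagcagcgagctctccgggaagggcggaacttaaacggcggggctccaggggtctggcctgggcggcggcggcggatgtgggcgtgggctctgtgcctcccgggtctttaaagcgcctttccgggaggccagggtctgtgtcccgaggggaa
The other windows of Dnmt1 (2) and Uhrf1 (1), around transcript starts farther upstream, hold none of the words. The Dnmt1 words thus lie downstream of 2 other Dnmt1 starts, the nearer in the window at chr9:20952930-20953229. For transcripts from those starts the words are not upstream sequence. The Uhrf1 word likewise lies downstream of 1 other Uhrf1 start. Promoter here means only a window around a listed start. A match of letters is a description and shows neither binding nor a cause.

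Dnmt3b encodes a de novo methyltransferase that is prominent in early embryonic cells (ENSMUSG00000027478, chr2:153475186-153513466, plus strand, mm9), and it had the largest called changes of the 9 genes. It was at 9.58 and 11.8 FPKM for Endo, 12.4 and 14.6 for HE, and 23.2, 30.5 and 25.9 for pre-HSCs. It reached 94.2 and 99.3 for FL HSCs and was at 40.7 and 34.1 for BM HSCs. No 2 populations overlapped, and their order was Endo, HE, pre-HSC, BM HSC and FL HSC. Endo and HE, next to each other in this order, differed by 0.31 on the log2 scale (adjusted p = 0.772). From pre-HSCs (26.5 ± 3.69, SD, n = 3) to FL HSCs (96.7 ± 3.65, n = 2) the log2 fold change was 1.84 (SE 0.16, limma's adjusted p = 1.06e-05). From FL to BM HSCs (37.4 ± 4.7, n = 2) it was -1.35 (SE 0.17, adjusted p = 0.000818), and from Endo to BM HSCs 1.72 (SE 0.17, adjusted p = 2.22e-05). These 3 calls held in each of 21 alternative settings, every library left out in turn included. From HE to pre-HSCs the change was 0.92 (SE 0.16, adjusted p = 0.00323), short of 2-fold, and it passed 2-fold without HE replicate 2 (1.03) or pre-HSC replicate 1 (1.01).

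Dnmt3a encodes the other de novo methyltransferase (ENSMUSG00000020661, chr12:3806007-3914443, plus strand, mm9). It was at 32 and 38.6 FPKM for Endo, 30.8 and 40.7 for HE, 47.3, 48.8 and 42.4 for pre-HSCs, 67.1 and 77.1 for FL HSCs, and 26.5 and 36.9 for BM HSCs. FL HSCs lay above all other libraries, while BM HSCs overlapped Endo and HE. From FL HSCs (72.1 ± 7.08, SD, n = 2) to BM HSCs (31.7 ± 7.35, n = 2) the log2 fold change was -1.18 (SE 0.19, limma's adjusted p = 0.0029). Without BM HSC replicate 1 it was -0.95, which ended the call, and without FL HSC replicate 2 it was -1.08 and the F test was missed. Into FL HSCs the change was 0.63 (SE 0.18, adjusted p = 0.0147), under 2-fold. From Endo to BM HSCs it was -0.16 with a 95% interval of -0.60 to 0.27, but -0.82 after a correction for transcript length.

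Dnmt3l encodes a cofactor of both without catalytic activity of its own, known mainly from germ cells (ENSMUSG00000000730, chr10:77504692-77526367, plus strand, mm9). It was at 0.26 and 0.15 FPKM for HE and listed at 0 in the other 9 libraries, including Endo, where the germ cell genes were highest. It was below the filter and was not tested.

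**Figure D3:**
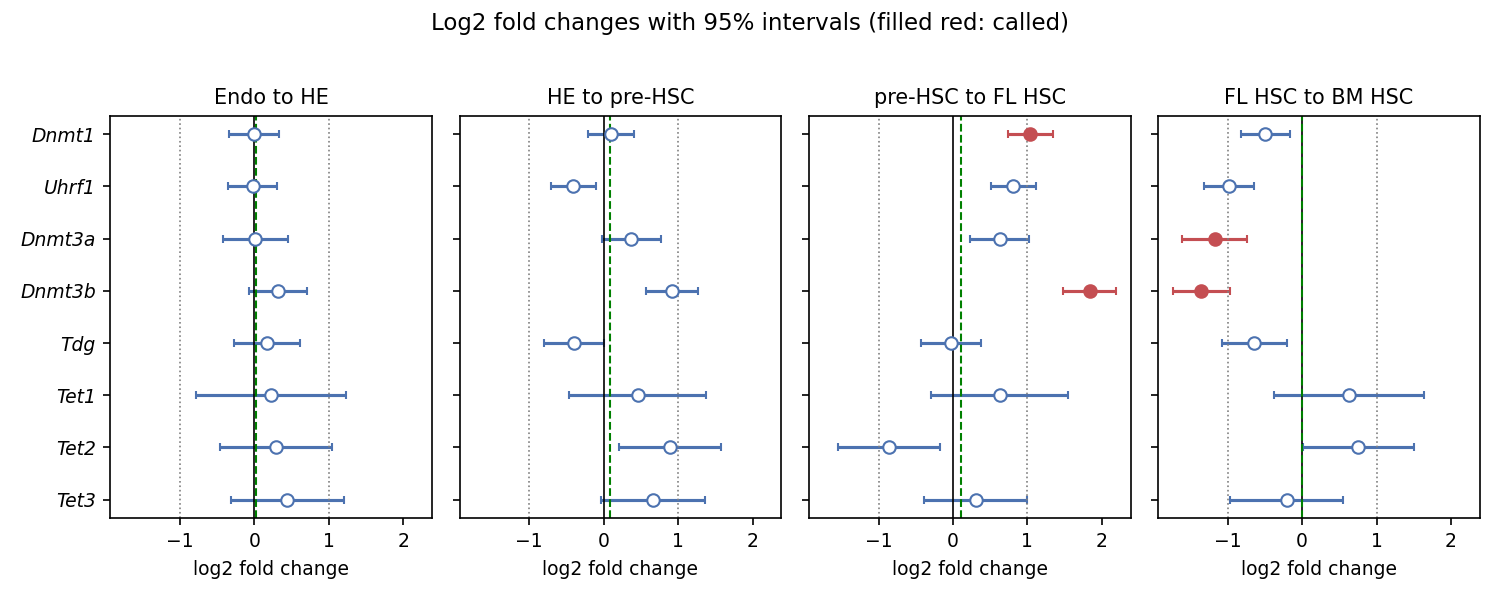
Log2 fold changes (x axis, on the scale of log2(FPKM + 1)) of the 8 tested genes in the 4 neighboring transitions, with 95% intervals of the limma fit. Filled red points are called, dotted lines mark 2-fold and the dashed green line the median of all 14708 genes; Dnmt1 and Dnmt3b were called into FL HSCs and Dnmt3a and Dnmt3b out of them.

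The promoters of the de novo pair are shown because the balance of both genes differed between arteries and HSCs. The Dnmt3a window at chr12:3806730-3807029 (GRCm38.p6, plus strand) has 46 CpGs and the Dnmt3b window at chr2:153649199-153649498 (plus strand) has 30, both above the upper quartile of 24. Neither holds one of the 4 E2F words, so neither has capitals, and this says only that the letters are not in these windows.
Dnmt3a promoter: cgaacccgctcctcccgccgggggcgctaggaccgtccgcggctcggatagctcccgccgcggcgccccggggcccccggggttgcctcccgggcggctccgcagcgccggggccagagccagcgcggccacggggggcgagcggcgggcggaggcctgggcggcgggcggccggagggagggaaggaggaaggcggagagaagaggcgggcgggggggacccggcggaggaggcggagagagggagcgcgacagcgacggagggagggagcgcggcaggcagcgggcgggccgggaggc
Dnmt3b promoter: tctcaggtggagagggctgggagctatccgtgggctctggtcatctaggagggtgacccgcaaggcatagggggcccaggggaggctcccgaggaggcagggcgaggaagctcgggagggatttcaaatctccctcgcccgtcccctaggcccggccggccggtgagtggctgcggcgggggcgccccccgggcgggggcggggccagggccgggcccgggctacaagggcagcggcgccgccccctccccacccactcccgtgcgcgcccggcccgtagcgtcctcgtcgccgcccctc
Across the 9 genes the CpG-richest window had 57 CpGs in Tet2, 47 in Dnmt3a, 33 in Dnmt1 and Uhrf1, 30 in Dnmt3b, 26 in Tdg, 22 in Tet3, 17 in Tet1 and 6 in Dnmt3l. Dnmt3l was the only gene whose richest window was under 13, the median over all single windows. Other windows of Dnmt1 (2 and 12 CpGs) and Uhrf1 (12) were also under it.

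The makeup of the de novo pair shifted from Dnmt3a toward Dnmt3b. Dnmt3a made up 76.9% and 76.6% of the summed FPKM of both genes in Endo, 71.3% and 73.6% for HE, and 67.1%, 61.6% and 62.1% for pre-HSCs. In FL HSCs it made up 41.6% and 43.7% and in BM HSCs 39.4% and 52%. Every HSC library was below every arterial library. The mean was 69.9% ± 6.43 (SD, n = 7) for Endo, HE and pre-HSCs and 44.2% ± 5.49 (SD, n = 4) for FL and BM HSCs, a difference of -25.7 percentage points. An exact two-sided permutation test over the libraries gave p = 0.00303, the smallest that its 330 splits allow, and 0.00606 after Benjamini-Hochberg adjustment over the 2 shares tested. The test treats the populations on each side as exchangeable and counts libraries of the same population as separate units. The arterial means differed, at 76.8% for Endo, 72.5% for HE and 63.6% for pre-HSCs. Its p-value therefore does not measure the spread between populations. With pre-HSCs alone against the HSCs the difference was -19.4 points, and the exact test then gave an adjusted p of 0.0571, the smallest that 3 against 4 libraries allow. Dnmt3a and Dnmt3b were both lower in BM than in FL HSCs, and the Dnmt3a share there, 45.7% ± 8.89 (SD, n = 2), overlapped that of FL HSCs, 42.7% ± 1.48 (SD, n = 2).

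**Figure D4:**
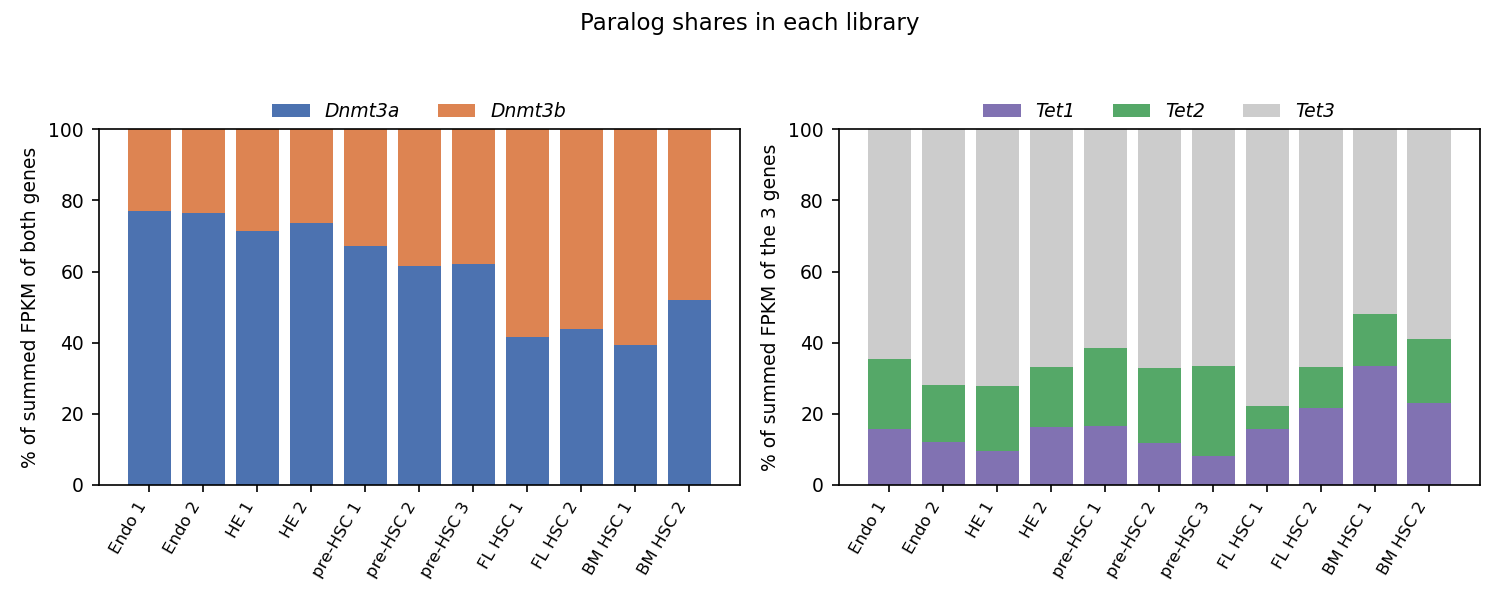
Share of the summed FPKM (y axis, 0 to 100%) taken by each paralog in each of the 11 libraries (x axis), for Dnmt3a and Dnmt3b on the left and Tet1, Tet2 and Tet3 on the right. Dnmt3a took 61.6% or more in the 7 arterial libraries and 52% or less in the 4 HSC libraries, and Tet3 took 51.8% or more in every library.

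Tet3, Tet2 and Tet1 encode the dioxygenases that oxidize methylated cytosine, and their levels were far below those of the methyltransferases. The summed FPKM of the 3 Tet genes was 5.32 to 14 for Endo and HE, 18.4 to 21.7 for pre-HSCs, 17.2 and 30 for FL HSCs and 21.8 and 29.8 for BM HSCs. That of Dnmt1, Dnmt3a and Dnmt3b was 97.1 to 121, 127 to 149, 304 and 306, and 161 and 169 in the same order. The ratio of the sums ran from 5.42 in BM HSC replicate 1 to 18.3 for Endo replicate 1 and overlapped between Endo, HE and FL HSCs.

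Tet3 (ENSMUSG00000034832, chr6:83312367-83391672, minus strand, mm9) was the most abundant of the 3 in each library. It was at 3.43 and 8.69 FPKM for Endo, 6.6 and 9.4 for HE, 13.4, 13.7 and 12.2 for pre-HSCs, 13.4 and 20.1 for FL HSCs, and 15.5 and 12.9 for BM HSCs. Pre-HSCs and both HSC populations overlapped, and all lay above Endo and HE. From Endo to BM HSCs the log2 fold change was 1.21 (SE 0.34, limma's pairwise adjusted p = 0.0116), but the F test missed its threshold (adjusted p = 0.0154). The change was 0.64 without Endo replicate 1 and 1.77, then a call, without Endo replicate 2.

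Tet2 (ENSMUSG00000040943, chr3:133126643-133207354, minus strand, mm9) was at 1.05 and 1.95 FPKM for Endo, 1.67 and 2.37 for HE, 4.72, 4.32 and 4.64 for pre-HSCs, 1.11 and 3.45 for FL HSCs, and 4.43 and 3.92 for BM HSCs. Pre-HSCs had the highest mean (4.56 ± 0.21, SD, n = 3), overlapping BM HSCs (4.17 ± 0.36, SD, n = 2), and FL HSCs overlapped Endo and HE. The log2 fold change was 0.89 (SE 0.30, limma's adjusted p = 0.0562) from HE to pre-HSCs, -0.86 (SE 0.30, adjusted p = 0.0399) into FL HSCs and 0.75 (SE 0.33, adjusted p = 0.134) into BM HSCs. The F test gave an adjusted p of 0.0202, so none is a call. The low FL mean rested on FL HSC replicate 1: without it the change into FL HSCs was -0.32, and the next one, into BM HSCs, 0.21. Without FL HSC replicate 2 they were -1.40 and 1.29, both then calls.

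Tet1 (ENSMUSG00000047146, chr10:62267318-62361866, minus strand, mm9) was at 0.84 and 1.46 FPKM for Endo, 0.87 and 2.28 for HE, 3.62, 2.4 and 1.5 for pre-HSCs, 2.72 and 6.44 for FL HSCs, and 9.93 and 5.03 for BM HSCs. The population means were lowest in Endo and highest in BM HSCs, and each neighboring pair overlapped. From Endo to BM HSCs, which did not overlap, the log2 fold change was 1.93 (SE 0.45, limma's adjusted p = 0.0044), with an F test adjusted p of 0.0151. Without FL HSC replicate 1, the F test was passed and Tet1 and Tet2 were called over this span.

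Tet2 took a smaller mean share of the 3 Tet genes in the pooled HSC libraries, with FL HSCs lowest. It made up 19.7% and 16.1% of their summed FPKM in Endo, 18.3% and 16.9% for HE, and 21.7%, 21.2% and 25.2% for pre-HSCs. In FL HSCs it made up 6.46% and 11.5%, and in BM HSCs 14.8% and 18%. BM HSC replicate 2 lay within the arterial range, and the BM HSC mean of 16.4% was near those of Endo (17.9%) and HE (17.6%). FL HSCs had the lowest mean (8.98%) and pre-HSCs the highest (22.7%), so the pooled difference is not a trait of both HSC populations. The means were 19.9% ± 3.16 (SD, n = 7) and 12.7% ± 4.92 (SD, n = 4), a difference of -7.18 points (exact two-sided permutation test, p = 0.0121, adjusted p = 0.0121). Without FL HSC replicate 1 it was -5.10 points with an adjusted p of 0.05 in the same exact test, so the call rests on that library. This test too treats the populations on each side as exchangeable and libraries of the same population as separate units. In BM HSCs Tet1 took 33.3% and 23.1%, above its share of 8.17% to 21.5% in every other library.

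The longest transcripts of the Tet genes and Dnmt3a run from 9179 to 14369 bases, and libraries differed in their balance of long and short transcripts. The median deviation of 1534 genes with transcripts of at least 6000 bases, minus that of 4631 genes under 2000 bases, was -0.25 and 0.25 on the log2 scale in the Endo replicates, -0.18 and 0.18 for HE and -0.20 and 0.20 for FL HSCs. It was 0.09, 0.08 and -0.19 for pre-HSCs and 0.05 and -0.05 for BM HSCs. All 3 Tet genes and Dnmt3a read lower in replicate 1 than in replicate 2 of Endo, HE and FL HSCs, the same direction as this balance. So did Dnmt3b, whose longest transcript has 4320 bases. Dnmt1, Uhrf1 and Tdg (5264, 3586 and 3502 bases) also read lower in replicate 1 of Endo and HE, but higher in that of FL HSCs. In Endo and HE all the tested genes thus shared the direction, while in FL HSCs only the Tet genes, Dnmt3a and Dnmt3b did. None of them has a longest transcript under 2000 bases, so they offer no short transcript to compare. The part of transcript length in these replicate differences was not tested. A correction for transcript length, chosen after seeing the data, moved the Endo to BM HSC changes of Tet1, Tet2 and Tet3 to 1.12, 0.43 and 0.50 and that of Dnmt3a to -0.82, none of them a call.

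Tdg encodes the glycosylase that removes oxidized cytosine (ENSMUSG00000034674, chr10:82092573-82113544, plus strand, mm9). It was at 45.6 and 55.3 FPKM for Endo, 51.1 and 62.7 for HE, 43.7, 44.2 and 40.3 for pre-HSCs, 43.7 and 40.1 for FL HSCs, and 21.4 and 32.7 for BM HSCs. BM HSCs lay below all other libraries, opposite to the Tet genes, whose lowest values were in Endo. Tdg passed the F test (adjusted p = 0.00639), and its log2 fold change was -0.64 (SE 0.20, limma's adjusted p = 0.0431) from FL to BM HSCs and -0.90 (SE 0.20, adjusted p = 0.00317) from Endo to BM HSCs, both under 2-fold. Without Endo replicate 1 or BM HSC replicate 2 the second value was -1.03 and -1.19 and was called. From HE, where Tdg was highest, to BM HSCs it was called lower, at -1.07 (SE 0.20, adjusted p = 0.00114), a span in which 36.6% of all genes were called. A transcribed Tdg pseudogene, listed as Gm9855 in the table, was at 5.15 to 18 FPKM, so reads may have been split between the copies and the Tdg values are uncertain.

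The count of 0 calls from Endo to HE came with no member below an unadjusted p of 0.05 in limma. Across all genes 336 (2.28%) had an unadjusted p under 0.05 and a 2-fold change in that comparison, against 19 called. From HE to pre-HSCs 3 of the 8 had an unadjusted p under 0.05 (Dnmt3b, Tet2 and Uhrf1), and none of them reached 2-fold.

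Genes that work with these enzymes were counted in lists chosen for their roles. Earlier results of these data were known when the lists were chosen, so the counts below are descriptions. Over all genes tested, 11.1% were called higher and 13.9% lower into FL HSCs, and 5.99% and 4.07% out of them. From HE to pre-HSCs these shares were 6.98% and 4.34%, and between Endo and HE 0.0544% and 0.0748%. The methyl donor list holds 11 genes of S-adenosylmethionine and folate metabolism, the source of the methyl group. Into FL HSCs 5 of the 11 were called higher, against 11.1% of all genes, and none lower, with a median log2 fold change of 0.61 against 0.11 over all genes. The folate enzyme gene Mthfd1 was at 22.2 ± 0.17 FPKM (SD, n = 3) for pre-HSCs and 115 ± 15.1 (SD, n = 2) for FL HSCs, a log2 fold change of 2.31. Shmt1 and Shmt2, which load folate with carbon from serine, changed by 1.72 and 1.63, and Ahcy, which clears the product of methylation, by 1.45. From FL to BM HSCs 3 of the 11 were called lower, with a median of -0.41 against 0 over all genes. They were Mthfd1 (-1.13), Shmt2 (-1.03) and Ahcy (-1.25).

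Of 12 genes that act with Dnmt1 and Uhrf1 at replicated DNA, 3 were called higher into FL HSCs (median 0.40 against 0.11 over all genes) and none from FL to BM HSCs. They were Cdca7l (1.44) and Cdca7 (1.21), a pair of zinc finger genes of which Cdca7 partners the remodeler Hells, and the DNA ligase gene Lig1 (1.27). Cdca7l and Cdca7 were at 65.6 ± 1.6 and 120.03 ± 9.01 FPKM for FL HSCs and at 81.1 ± 1.52 and 116 ± 10.4 for BM HSCs (SD, n = 2 each). They thus stayed near their FL values in BM HSCs, where Dnmt3b and Lig1 were lower. Pcna, the sliding clamp, was not called in any transition, with 0.76 into FL HSCs. Ehmt2 was listed at 0 in FL HSC replicate 1.

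Of 8 genes listed as readers of methylated CpG or their relatives, 1 was called higher in each of 3 transitions. These were Mbd4, a thymine glycosylase with a methyl-CpG binding domain, from HE to pre-HSCs (1.06, adjusted p = 0.00791), Mbd1 into FL HSCs (1.11, adjusted p = 0.000469) and Zbtb38 into BM HSCs (1.27, adjusted p = 0.0156). Mbd3, a relative and the most abundant gene of this list, was not called in any of the 4 transitions. From Endo to BM HSCs 4 of the 8 were called higher, against 21.1% of all genes, and none lower, with a median of 0.999 against 0.19 over all genes.

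Of 12 genes of the repair that follows Tdg, Ung, which removes uracil, was called higher into FL HSCs (1.29), and Gadd45g, a stress gene proposed to aid demethylation, was called lower (-2.60), with a median of 0.0014 over the list against 0.11 over all genes. Gadd45g was at 38 ± 2.26 FPKM (SD, n = 2) for Endo and 6.21 ± 1.51 (SD, n = 2) for FL HSCs. Apex1 and Parp1, which act on the site that the glycosylase leaves, were not called in any transition, with 0.97 and 0.96 into FL HSCs.

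Of 11 tested genes for Tet cofactors and partners, 1 was called higher and 3 lower into FL HSCs (median 0.25 against 0.11 over all genes). Idh1, whose product makes the oxoglutarate that Tet enzymes use, fell by 1.36 on the log2 scale, from 52.3 ± 6.99 FPKM (SD, n = 3) for pre-HSCs to 19.7 ± 1.44 (SD, n = 2) for FL HSCs. Idh3a, of the mitochondrial enzyme, rose by 1.22. Wt1 and Cxxc4, which encode proteins that bind Tet2, were listed at 0 in both FL libraries, and were at 2.71 ± 1.05 and 2.05 ± 0.88 FPKM (SD, n = 3) for pre-HSCs.

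Of 14 genes that guide methylation to or away from sites, Zfp57, a zinc finger gene that protects methylation at imprinted regions, had the largest called change of a neighboring transition. The list had 1 gene called lower from Endo to HE, 1 lower from HE to pre-HSCs, and 1 higher and 1 lower into FL HSCs, with a median there of 0.37 against 0.11 over all genes. Zfp57 was at 41.9 ± 7.18 FPKM for Endo, 53.6 ± 0.71 for HE (SD, n = 2 each), 47.2 ± 8.23 for pre-HSCs (SD, n = 3) and 3.37 ± 1.42 for FL HSCs (SD, n = 2). Its log2 fold change into FL HSCs was -3.49 (adjusted p = 7.08e-06). Its cofactor gene Trim28 was not called in any transition. Dppa3, which keeps Uhrf1 from chromatin in germ cells, was called lower from Endo (32.2 ± 10.5 FPKM, SD, n = 2) to HE (4.63 ± 1.91, n = 2) and is itself one of the germ cell markers counted above. Kdm2b, which binds unmethylated CpG islands, was called higher into FL HSCs (1.05).

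**Figure D5:**
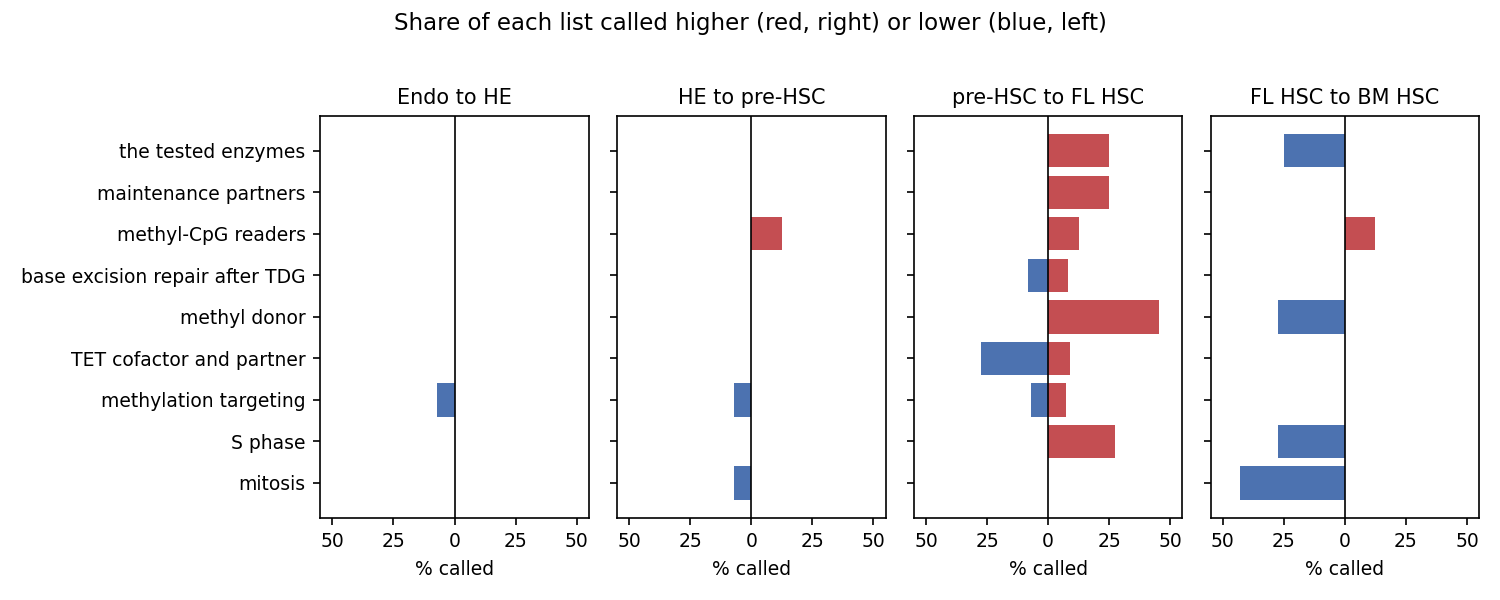
Percent of the tested genes of each list that were called higher (red, to the right) or lower (blue, to the left) in each of the 4 neighboring transitions (x axis, percent). The methyl donor list had 5 of 11 genes called higher into FL HSCs, the tested enzymes 2 of 8.

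Cell type markers moved with the FL values. The erythroid list was called higher for 3 of its 6 genes into FL HSCs and lower for all 6 from FL to BM HSCs, with sums of 16.4 to 25.4 FPKM for pre-HSCs, 139 and 228 for FL HSCs and 21.2 and 33.6 for BM HSCs. In BM HSCs Alas2 was listed at 0. FL HSC replicate 1, with the higher erythroid sum, had the lower Dnmt3b and Dnmt3a values and the higher Dnmt1 and Uhrf1 values of the pair. The part of erythroid cells in the FL levels was not tested. The germ cell sum was highest in Endo, where Dnmt3b, Tet1, Tet2 and Tet3 had their lowest means. Ddx4 of that list went the other way, with means of 0.26 FPKM for Endo and 6.23 for FL HSCs. The part of germ cells in these levels was not tested.

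Among the 8 tested genes, Dnmt1 and Dnmt3b had the most similar profiles, with a Pearson r of log2(FPKM + 1) of 0.92 over the 11 libraries, and Tet1 and Tdg the most opposed, at -0.75. The libraries of a population share their sort, so these r values are descriptions. Among about 9420 other genes with a mean FPKM of at least 10 in a population, the closest to Dnmt1 were Narf (0.99), Ino80c (0.98) and Afg3l2 (0.98), and to Dnmt3b Aqr (0.99), Rbbp7 (0.98) and Atpaf1 (0.97). For Dnmt3a they were 2310008H09Rik, Gfm1 and Dhx8 (each 0.95), and for Uhrf1 Ttll12 (0.98), Add2 (0.97) and Hmga1 (0.96). For Tet1 they were Pnn, Rbm26 and Zfp169 (each 0.97), for Tet2 Son (0.99), Ythdf3 and Ssfa2 (0.97 each), and for Tet3 Cdk12, Arnt and Rcor1 (each 0.96). For Tdg they were Grinl1a (0.97), Sdc1 and Tle3 (0.94 each).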

How the data were processed

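The authors sequenced poly(A)-selected RNA as unstranded paired-end libraries. TopHat placed the reads on mm9, only unique alignments were used, and genes were those of Ensembl. They deposited 1 table of FPKM per gene and library. The submitters' processing notes also name Cufflinks, featureCounts of Subread and edgeR, without versions, and do not say which of these tools computed the FPKM. At most 2.99% of low values shared a step, so reads were not recovered, depth is unknown and no counting interval is given. Symbols and positions came from GENCODE M1 on NCBIM37 (37038 of 37820 IDs), and promoters from RefSeq (GRCm38.p6).

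Log2(FPKM + 1) of 14708 genes was fitted with limma 3.58.1 (eBayes with a trend, R 4.3.3) over the 11 libraries with population as the factor, in place of the study's count test, whose thresholds were kept. P-values were Benjamini-Hochberg adjusted over all genes. Shares were tested with exact two-sided permutations of libraries. Members and lists were chosen with earlier results of these data known. Named genes were the 9 members, up to 4 genes of each related list (the largest called changes of the neighboring transitions, then the highest mean FPKM) and the 3 most similar genes per member. Single markers and Hells, Ehmt2 and Gm9855 were added after their values were seen. Cdt1, Gins2 and Adgre1 were not analysed here, and 1 germ cell gene did not pass the filter. A listed gene is not reported here. For promoters, 2 words were first searched at the outermost start of each gene, without a match, and the search was then widened to 4 words and all starts. The fit was tested on simulated data. Alternatives were pseudocounts of 0.1 and 0.5, no filter, quantile normalization, equal totals, a stricter p, no F test, a block for the replicate number, a fit of the compared libraries alone, each library left out and, chosen after seeing the data, a correction for transcript length. Tables and plots used matplotlib 3.10.9, numpy 2.4.6 and pandas 2.3.3 in Python 3.11.15.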

Additional observations from a re-analysis of the deposited data

How the results depend on the processing

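With 2 or 3 libraries a population, calls near 2-fold depend on the setting and on single libraries, and depth, which is unknown, limits most of all the Tet genes at 1 to 5 FPKM. All 3 Dnmt3b calls held under all 21 alternatives. Into FL HSCs 1 of the 8 genes was called under quantile normalization, equal totals or the replicate block, in place of 2, since Dnmt1 then fell short of 2-fold at 0.80, 0.79 and 0.96. From HE to pre-HSCs 1 was called under equal totals (Dnmt3b), in place of 0. From Endo to BM HSCs 2 were called, in place of 1, under quantile normalization or the length correction (Tdg added), and 4 without the F test step or with only the libraries compared (the 3 Tet genes added). Under equal totals 3 of the 8 passed the F test, in place of 5. Why these settings moved the counts was not tested beyond the fold limit and the F test step. Leaving out 1 library at a time gave 0 to 1 calls from HE to pre-HSCs, 1 to 3 into FL HSCs, 1 to 3 from FL to BM HSCs, 1 to 3 from Endo to BM HSCs, and 4 to 6 genes past the F test.

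With pre-HSCs alone against the HSCs, the Dnmt3a share differed by -19.4 points and the Tet2 share by -10.0 points, each with an adjusted p of 0.0571 in the exact test. With 1 library left out they ran from -28.3 to -24.1 and from -8.94 to -5.10, the last without FL HSC replicate 1 and at an adjusted p of 0.05.

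Changes of sign were seen only in values that were no calls. From Endo to HE, Dnmt1 was at 0.0238 and Uhrf1 at 0.0288 under quantile normalization and at 0.10 and 0.0861 under equal totals. Under the length correction Dnmt3a was at -0.14 from Endo to HE, and Dnmt1 and Dnmt3a at -0.16 and -0.0032 from HE to pre-HSCs. With 1 library left out, the Endo to HE values spanned -0.16 to 0.14 (Dnmt1), -0.11 to 0.0632 (Uhrf1), -0.18 to 0.21 (Dnmt3a), -0.19 to 0.62 (Tet1) and -0.12 to 1.01 (Tet3). Tdg spanned -0.0872 to 0.0343 into FL HSCs, Tet3 -0.48 to 0.0712 from FL to BM HSCs and Dnmt3a -0.40 to 0.0665 from Endo to BM HSCs. Some scalings moved the median of all genes by over 0.1, by -0.11 (HE to pre-HSC) and -0.17 (Endo to BM HSC) for quantile normalization, 0.13, -0.20 (into FL HSC) and 0.13 for equal totals, and -0.20 (Endo to BM HSC) for the length correction.

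The replicate numbers of the titles did not pair the libraries throughout. Deviations of libraries with the same number correlated at -0.155 to 0.156 over 10 pairs of populations. They exceeded 0.1 for both numbers in 3 of them, the pairs among Endo, HE and FL HSCs. In a population of 2 libraries the deviations mirror each other, so in these pairs both numbers give the same r by construction. That r counts once. The first replicates of Endo, HE and FL HSCs also shared the lower level of long transcripts. With the number as a block, pre-HSC replicate 3 no longer informs the contrasts, and the Dnmt1 call above was the only one of the 8 genes' calls that was lost.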
